A study of Mus musculus with 6 samples.

Results

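Genes of the nuclear pore complex and of the nuclear transport receptors were compared between bone marrow stromal cells (BMSCs) of mice aged 3 months (young) and 18 months (aged). BMSCs are plastic-adherent marrow cells able to form bone, fat and cartilage cells. They came from crushed, collagenase-digested femurs, were sorted as Sca-1+ CD29+ CD45- CD11b-, and were expanded in culture after a first passage; their total RNA was read on 6 Affymetrix arrays, 3 of each age. Sort and culture were the same for both ages, and the labels name no strain, genotype or treatment. Replicates are labelled biological without saying whether each is 1 animal or a pool, and p-values therefore cover only the spread among these arrays. The members were found by their symbol in the platform annotation: the families Nup, Ipo, Xpo, Kpna, Tnpo and Ranbp followed by a number (or Xpot), together with Kpnb1, Cse1l, Ran, Rangap1, Tpr, Ndc1, Pom121, Rae1, Seh1l and Aaas. This gave 55 of the 30654 genes with a probe set of their own. Where a gene had several, the brightest on average across the 6 arrays was used, so the level of a member helped to choose its probe set and is given as a description. The list was proposed with the age comparison already known, and counts over it describe it and test nothing about it as a list. Ipo7, Ipo11, Nup62 and Nup214 lie only on probe sets annotated to several genes and, like Tpr, were not analysed here.

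The nuclear pore is the channel through which proteins and RNA pass between cytoplasm and nucleus. Stacked outer and inner rings form its scaffold, membrane proteins anchor it in the nuclear envelope, nucleoporins with phenylalanine-glycine repeats fill the central channel, and filaments and a basket project to the cytoplasm and the nucleus. Importins carry cargo in and exportins carry cargo out, and the GTPase Ran sets the direction. Ran is loaded with GTP in the nucleus, and its activating protein makes it hydrolyse GTP in the cytoplasm. Proliferating cells build new pores in interphase and disassemble them at mitosis.

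In aged cells most of these genes were lower, each by a modest amount. Of the 52 members tested, 37 fell, 2 rose and 13 did not pass (limma across all genes, Benjamini-Hochberg adjusted p under 0.05). That is 71.2% lower, where 22.1% of all 20149 genes tested were called lower. The share higher was 3.85%, where 18.5% of all genes were called higher. The median member differed by -0.25 on the log2 scale, beside 0.01 for all genes tested, and no member differed 2-fold. The members' differences ran from -0.64 (Tnpo1 and Tnpo2) to 0.22 (Nup37). In 39 members all aged arrays lay below all young arrays and in 2 all lay above, against 26.9% and 24.4% of all genes, and in 11 the groups overlapped.

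**Figure D1:**
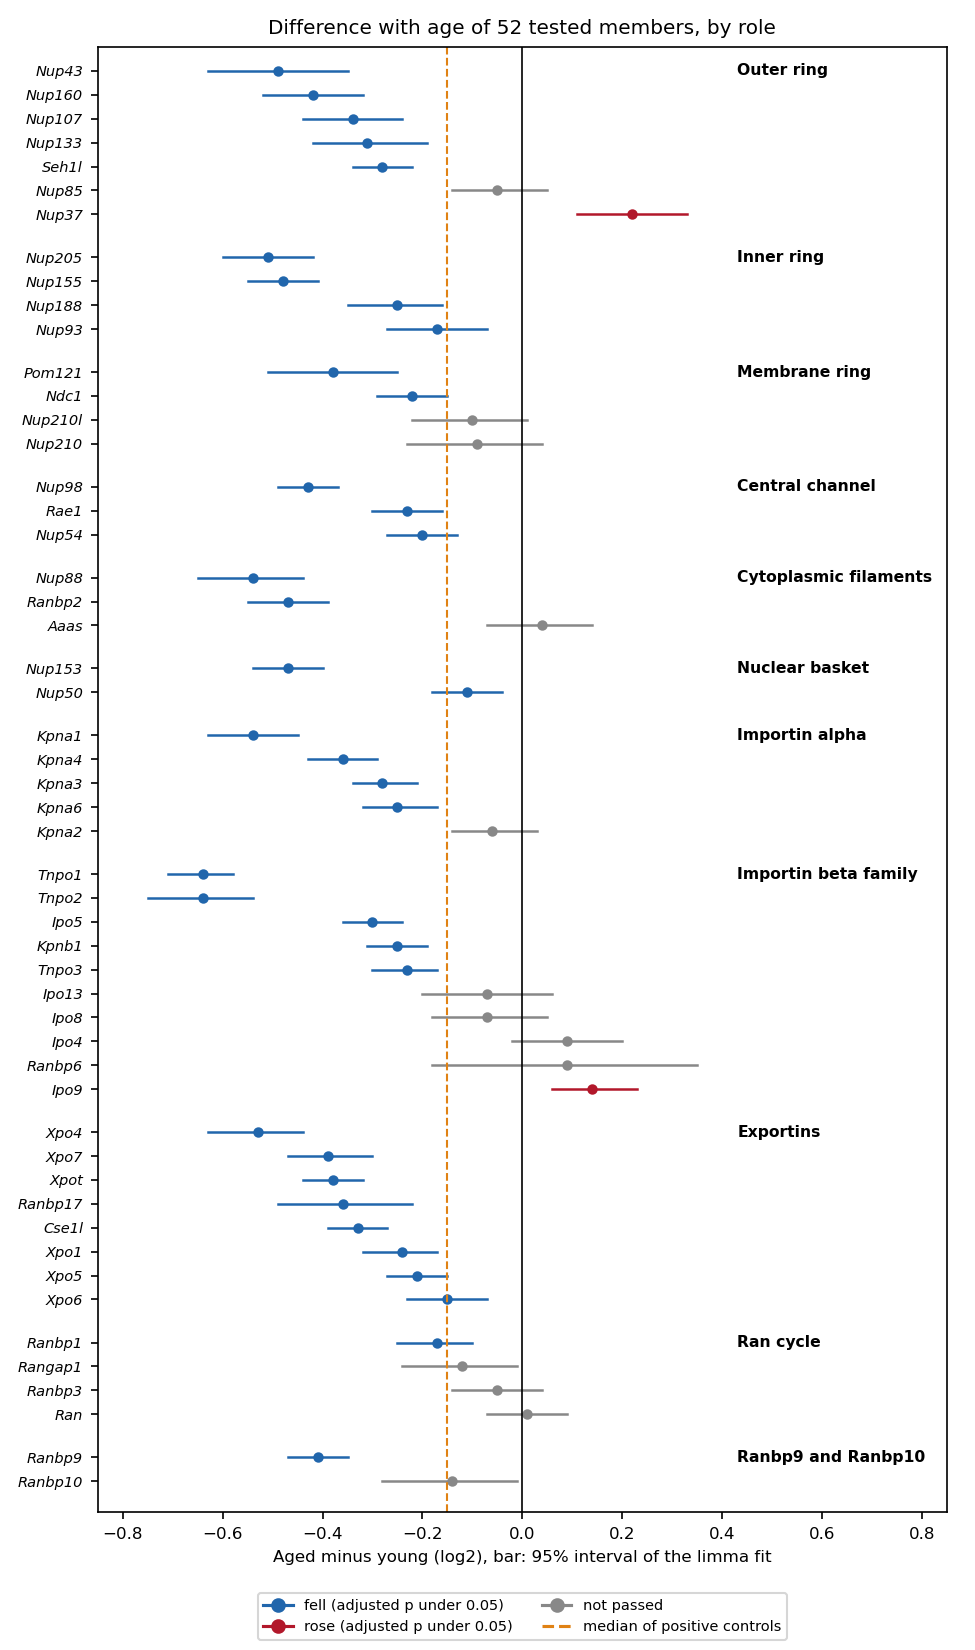
Difference with age (aged minus young, log2) of the 52 tested members, grouped by role. Points are differences and bars 95% intervals of the limma fit; colour gives the call and the dashed line the median of the positive control probe sets, -0.15. Blue points, the 37 that fell, occur in every role, and the 2 red points are Nup37 and Ipo9.

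Brighter probe sets were called more often on these arrays, and most members are bright. Among the 9853 genes with a mean above 7.61, the level below which 95% of the negative control probe sets lay, 36.0% were called lower and 22.9% higher, and 41.6% had every aged array below every young array. Of the 47 tested members above that level, 35 (74.5%) fell. The array's positive control probe sets also read lower in aged cells, with a median difference of -0.15, and 35 of the 37 falling members fell by more than that. The share of all genes past that cut was not counted, so the 35 describe only the members. A total of 22 members fell by more than 0.29, the largest shift, in either direction, among the background probes that have no target in the mouse genome. Across all genes tested 10.3% were called lower by more than that amount. The negative control probe sets, most of them dim, had a median difference of -0.26, about that of the members, while the genes above the negative control range had a median of -0.04. What part the shift of the control probe sets has in the members' differences was not tested beyond the centrings that follow. Further scalings were added after that shift was seen. Centring each array on the median of its positive controls took out a difference between the ages of -0.10, less than the -0.15 of the typical control probe set. It left 33 members lower and 5 higher (Nup37, Ipo9, Ipo4, Aaas and Ran), with a median member difference of -0.15 and a median of all genes of 0.11. Under it 14.3% of all genes were called lower and 29.4% higher. Centring each array on the median deviation of the positive controls from their own means took out -0.14. It left 31 members lower and 8 higher, adding Kpna2, Nup85 and Ranbp3 to those higher, with a median member difference of -0.11 and a median of all genes of 0.15. Under this deviation centring 12.2% of all genes were called lower and 40.2% higher. The calls it ended among members that fell were those of Nup54, Xpo5, Xpo6, Nup93, Nup50 and Ranbp1.

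**Figure D2:**
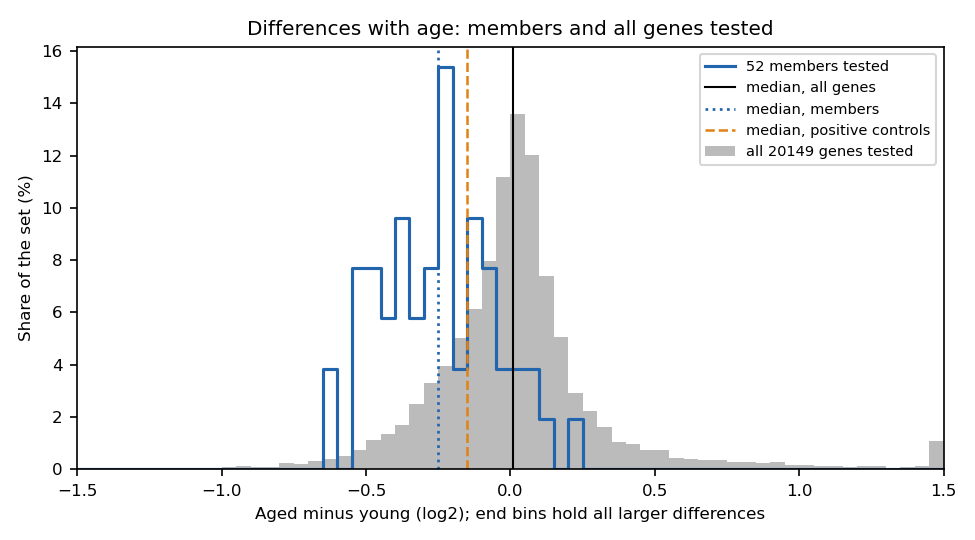
Share of genes (%) by their difference with age (aged minus young, log2, bins of 0.05) for all 20149 genes tested (grey) and the 52 members (blue line). The members' median of -0.25 lies left of the median of all genes, 0.01, and of the positive controls, -0.15.

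As a whole the arrays within an age were closely alike (Pearson's r across genes 0.995 to 0.999, and 0.976 to 0.978 between ages; genes are not independent replicates). Array medians of the log2 values lay between 5.39 and 5.44. The median of the members, each set relative to its own mean over all arrays, was 0.16, 0.12 and 0.09 in the young arrays and -0.13, -0.13 and -0.12 in the aged arrays. The medians of the positive controls on the same arrays were 9.909, 9.851 and 9.799 in young and 9.746, 9.768 and 9.752 in aged cells, so that the young array with the highest member median also had the brightest controls and the one with the lowest the dimmest. Young arrays thus spread more than aged arrays, and the member SD was larger in the young group for 47 of the 52. Across all genes tested the median SD was likewise larger, 0.07 in young and 0.04 in aged arrays, beside 0.05 and 0.02 for the members. Of the sort markers, Itgb1 (CD29) was bright and was called lower, with a difference of -0.1 (limma, adjusted p = 0.025). Ptprc (CD45) and Itgam (CD11b) lay within the negative control range, and Ly6a (Sca-1) was not analysed here. All 22 analysed markers of macrophages, endothelium, lymphoid, erythroid and megakaryocyte cells had means within that range. Of these, Cd14 and Kdr rose and Tek fell, while the mean level of the 8 macrophage markers was 5.47 to 5.5 in young and 5.53 in aged arrays. The endothelial list stood at 5.38 to 5.45 and 5.51 to 5.55, the lymphoid list at 5.19 to 5.32 and 5.25 to 5.27, and the erythroid and megakaryocyte list at 6.38 to 6.57 and 6.51 to 6.61. Of 11 stromal markers 8 rose and 1, Nt5e, fell. Among them 3, Thy1, Nt5e and Eng, also had means within the negative control range. Mean levels of the stromal list were 9.02 to 9.08 in young and 9.71 to 9.72 in aged arrays, and the part of these markers in the results was not tested. In RNA from a whole culture, fewer cells of a kind and less RNA per cell cannot be told apart. The labels do not say which arrays were cultured or hybridised together, and a batch that followed age cannot be told apart from age.

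Promoter sequences of members are shown here because so many of the genes moved together. The windows are the 250 bases before an annotated start, from RefSeq (GRCm38.p6), and 43 of the 55 members had at least 1 window, 50 in all. Those printed overlap no annotated gene: Nup205 and Ranbp2 have the largest decreases among members with such a window, Kpnb1 encodes importin beta 1, and Ipo9 is a member that rose. They lie at chr6:35177366-35177615, plus strand (Nup205), chr10:58446602-58446851, plus strand (Ranbp2), chr11:97187893-97188142, minus strand (Kpnb1) and chr1:135430500-135430749, minus strand (Ipo9). Each reads 5′ to 3′ towards the start. Capitals mark exact matches, on either strand, to the GC box GGGCGG, the ETS core CCGGAAG, the E-box CACGTG, the CCAAT box CCAAT and the palindromic NRF1 site. The TATA box TATAAA was searched too and is left in lower case.
Nup205: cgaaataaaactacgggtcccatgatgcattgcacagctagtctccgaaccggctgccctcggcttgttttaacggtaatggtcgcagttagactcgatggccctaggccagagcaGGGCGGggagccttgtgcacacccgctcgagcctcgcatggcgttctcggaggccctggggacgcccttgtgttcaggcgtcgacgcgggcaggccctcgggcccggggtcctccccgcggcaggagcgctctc
Ranbp2: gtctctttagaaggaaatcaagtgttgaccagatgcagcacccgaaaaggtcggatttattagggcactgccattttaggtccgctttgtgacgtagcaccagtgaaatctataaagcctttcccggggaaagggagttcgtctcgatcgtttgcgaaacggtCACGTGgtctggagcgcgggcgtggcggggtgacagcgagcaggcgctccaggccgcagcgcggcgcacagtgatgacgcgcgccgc
Kpnb1: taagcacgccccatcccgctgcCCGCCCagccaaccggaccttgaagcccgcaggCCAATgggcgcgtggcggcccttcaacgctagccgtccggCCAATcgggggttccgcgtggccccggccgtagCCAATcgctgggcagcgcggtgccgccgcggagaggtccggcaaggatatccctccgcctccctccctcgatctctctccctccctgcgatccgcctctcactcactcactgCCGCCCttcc
Ipo9: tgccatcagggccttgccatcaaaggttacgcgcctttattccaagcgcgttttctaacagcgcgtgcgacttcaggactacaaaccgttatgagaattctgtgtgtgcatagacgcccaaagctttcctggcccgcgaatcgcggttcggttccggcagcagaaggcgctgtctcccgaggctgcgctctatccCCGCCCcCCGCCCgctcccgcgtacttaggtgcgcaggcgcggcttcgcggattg

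The printed window of Nup205 held a single GC box and that of Ranbp2 a single E-box and, unmarked, a TATA box. That of Kpnb1 had 3 CCAAT boxes and 2 GC boxes, and the printed Ipo9 window had 2 adjacent GC boxes. A further Ipo9 window, not printed because it overlaps an annotated gene, shares most of this sequence and also holds a CCAAT box. The printed Ipo9 window ends before that match is complete. The GC box was in 33 of the 50 member windows (66.0%), beside 32.7% of all 32851 windows. The ETS core was in 18.0% beside 6.91%, the E-box in 14% beside 6.02% and the NRF1 site in 8.0% (Nup107, Nup50, Ran and Xpo5) beside 0.782%. The TATA box was in 8.0% beside 12.4%. The CCAAT box was about as frequent in members (38.0%) as in all windows (33.8%). The member windows had a median GC content of 63.8% against 52.4%, and motifs rich in G and C are met more often in such sequence. No motif contains another. A match is a run of letters, not a measured site, and the members that rose carry such matches too.

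The outer ring is built from Y-shaped complexes that also sit on kinetochores in mitosis. Of its 7 members 5 fell, 1 rose and 1 did not pass, with a median difference of -0.31. Seh1l, a propeller protein shared with a nutrient-sensing complex, read 10.7, 10.73 and 10.7 in young and 10.42, 10.44 and 10.43 in aged arrays. It fell by 0.28 on the log2 scale (SE 0.0264, adjusted p = 3.91e-05), 1.22-fold lower. Nup160, another part of the Y, read 9.47, 9.38 and 9.32 in young and 8.99, 8.97 and 8.95 in aged arrays and fell by 0.42 (SE 0.043, adjusted p = 6.55e-05), 1.34-fold lower. In both genes every aged array lay below every young array. Nup43 read 8.15, 8.06 and 7.94 in young and 7.53, 7.63 and 7.53 in aged arrays and fell by 0.49 (SE 0.0599, adjusted p = 0.000201). Its aged mean lay within the negative control range, and a fold is therefore not given. Nup107, which joins Nup133 in the stem of the Y, read 8.88, 8.79 and 8.74 in young and 8.46, 8.47 and 8.46 in aged arrays and fell by 0.34 (SE 0.0428, adjusted p = 0.000241), and Nup133 fell by 0.31. Nup85, also of the Y, had a difference of -0.05 (95% interval -0.14 to 0.05, adjusted p = 0.458), and passed as higher by 0.09 after deviation centring (adjusted p = 0.0294).

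Nup37, a small propeller protein bound to Nup160, went the other way. It read 8.17, 8.08 and 8.02 in young and 8.32, 8.35 and 8.26 in aged arrays and rose by 0.22 (SE 0.0486, adjusted p = 0.00651), 1.16-fold higher. That rise is smaller than the largest shift of the background probes. The groups did not overlap, and the Nup160 and Nup37 differences thus had opposite signs within the same subcomplex.

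All 4 measured inner ring genes fell, with a median difference of -0.36. Nup155, which links the ring to the membrane, read 9.71, 9.72 and 9.67 in young and 9.21, 9.24 and 9.23 in aged arrays and fell by 0.48 (SE 0.0301, adjusted p = 3.56e-06), 1.39-fold lower. Nup205, a large scaffold protein, read 9.51, 9.48 and 9.39 in young and 8.97, 8.94 and 8.95 in aged arrays and fell by 0.51 (SE 0.0377, adjusted p = 9e-06), 1.42-fold lower. Its paralog Nup188 read 10.18, 10.1 and 10.02 in young and 9.84, 9.83 and 9.87 in aged arrays and fell by 0.25 (SE 0.0425, adjusted p = 0.00136). The drop of Nup205 was thus about that of Nup155 and its 95% interval (-0.6 to -0.42) did not overlap that of Nup188 (-0.35 to -0.16); the difference between the paralogs was not tested. Nup93, the adaptor of the ring, read 9.17, 9.09 and 9.0 in young and 8.9, 8.91 and 8.93 in aged arrays and fell by 0.17 (SE 0.0449, adjusted p = 0.0149). Its call was lost in 3 of the 6 fits that left out an array, without young replicate 2, aged replicate 1 or aged replicate 2 (adjusted p = 0.0525, 0.0584 and 0.0544), and after median centring and centring on positive controls (adjusted p = 0.0652 and 0.0602) or their deviations (adjusted p = 0.344).

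Of the 4 membrane ring genes 2 fell and 2 did not pass. Ndc1, a transmembrane protein needed for pore assembly, read 9.84, 9.79 and 9.78 in young and 9.59, 9.57 and 9.57 in aged arrays and fell by 0.22 (SE 0.0306, adjusted p = 0.000398), 1.17-fold lower. Pom121, which acts early in assembly in interphase, read 9.93, 9.83 and 9.72 in young and 9.39, 9.43 and 9.51 in aged arrays and fell by 0.38 (SE 0.0559, adjusted p = 0.000607), 1.3-fold lower. Nup210 and its paralog Nup210l were within the negative control range, at 5.9 and 5.81 (Nup210) and 5.88 and 5.78 (Nup210l) in young and aged cells, where differences of -0.09 and -0.1 carry little information (Nup210l passed with eBayes without trend, adjusted p = 0.0476).

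Of the genes grouped here with the central channel, the 3 that could be tested all fell. Nup98, whose transcript also encodes Nup96 of the outer ring, read 10.53, 10.54 and 10.5 in young and 10.1, 10.09 and 10.1 in aged arrays and fell by 0.43 (SE 0.0273, adjusted p = 3.73e-06), 1.35-fold lower. The probe set cannot separate its products. Rae1, the mRNA export factor that binds Nup98, read 10.01, 9.94 and 9.94 in young and 9.75, 9.73 and 9.73 in aged arrays and fell by 0.23 (SE 0.0318, adjusted p = 0.000443). Nup54, a partner of Nup62 in the channel, read 9.75, 9.71 and 9.68 in young and 9.5, 9.5 and 9.54 in aged arrays and fell by 0.2 (SE 0.0323, adjusted p = 0.00105), a call lost after deviation centring (adjusted p = 0.0535). Aged arrays were below all young arrays in each of the 3 genes. Nup62cl was below the filter on dim probe sets, at 3.29 to 3.47 over the 6 arrays, within the negative control range.

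On the cytoplasmic face 2 of 3 genes fell. Ranbp2 (Nup358), the giant filament protein that binds Ran and acts as a SUMO ligase, read 10.39, 10.45 and 10.52 in young and 9.98, 9.99 and 9.98 in aged arrays and fell by 0.47 (SE 0.0362, adjusted p = 1.16e-05), 1.38-fold lower. RefSeq lists a Ranbp2 pseudogene, so its probe set may read more than 1 locus. Nup88, the anchor of Nup214 on this face, read 7.9, 7.87 and 7.78 in young and 7.29, 7.32 and 7.33 in aged arrays and fell by 0.54 (SE 0.0462, adjusted p = 2.18e-05), with its aged mean within the negative control range. Aaas (aladin) had a difference of 0.04 (95% interval -0.07 to 0.14, adjusted p = 0.583) with overlapping groups, and passed as higher by 0.13 and 0.17 after centring on positive controls and on their deviations (adjusted p = 0.00666 and 0.00133). On the nuclear face, Nup153, a basket protein that docks importins, read 9.99, 9.94 and 9.92 in young and 9.49, 9.46 and 9.48 in aged arrays and fell by 0.47 (SE 0.0313, adjusted p = 4.95e-06), 1.39-fold lower. Its mobile partner Nup50, which helps release cargo from importin alpha, read 11.18, 11.15 and 11.09 in young and 11.04, 11.02 and 11.02 in aged arrays and fell by 0.11 (SE 0.0303, adjusted p = 0.0177). That is less than the shift of the positive controls, and the difference was -0.01 after centring on positive controls (adjusted p = 0.717) and 0.03 after centring on their deviations (adjusted p = 0.328). Nup50 also failed after quantile normalization (adjusted p = 0.225), after median centring (adjusted p = 0.11) and with eBayes without trend (adjusted p = 0.0543). It failed too in 4 of the 6 fits that left out an array: without young replicate 2 and without each aged array (adjusted p = 0.0513 to 0.0732).

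Importin alpha proteins recognise the classical nuclear localisation signal and bridge cargo to importin beta. Of 5 tested, 4 fell. Kpna1 read 8.68, 8.64 and 8.58 in young and 8.1, 8.07 and 8.1 in aged arrays and fell by 0.54 (SE 0.0391, adjusted p = 8.06e-06), 1.45-fold lower. Kpna4 read 9.36, 9.37 and 9.38 in young and 9.04, 9.01 and 8.98 in aged arrays and fell by 0.36 (SE 0.0319, adjusted p = 2.8e-05), and its close paralog Kpna3 read 10.71, 10.67 and 10.71 in young and 10.42, 10.42 and 10.42 in aged arrays and fell by 0.28 (SE 0.0272, adjusted p = 5.32e-05). Kpna6, the paralog of Kpna1, read 9.6, 9.58 and 9.53 in young and 9.31, 9.31 and 9.34 in aged arrays and fell by 0.25 (SE 0.0322, adjusted p = 0.000313), 1.19-fold lower. In these 4 genes young and aged arrays did not overlap. Kpna7, an oocyte importin, was below the filter at 5.13 to 5.27, within the negative control range.

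Kpna2, the importin alpha best known from dividing cells, did not pass. Its probe set read 10.42, 10.31 and 10.31 in young and 10.28, 10.28 and 10.31 in aged arrays, a difference of -0.06 (95% interval -0.14 to 0.03, adjusted p = 0.267), and the groups overlapped. It passed as higher by 0.08 after deviation centring (adjusted p = 0.0365). The chosen probe set carries a name of chromosome 17, where RefSeq lists a Kpna2 pseudogene, while the gene lies on chromosome 11. The other 2 Kpna2 probe sets, named for chromosomes 11 and 3, differed by -0.05 and -0.07, so the choice of probe set did not alter the picture, and which locus each reads is uncertain.

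The importin beta family binds cargo directly or through adaptors. Of its 10 members 5 fell, 1 rose and 4 did not pass, with a median difference of -0.15 that shrank to -0.01 after deviation centring. The largest decreases among all members were those of the transportins, which import RNA-binding proteins. Tnpo1 (transportin 1) read 11.15, 11.14 and 11.13 in young and 10.49, 10.48 and 10.54 in aged arrays and fell by 0.64 (SE 0.0281, adjusted p = 3.88e-07), 1.56-fold lower. Its paralog Tnpo2 read 10.76, 10.67 and 10.58 in young and 10.01, 10.0 and 10.07 in aged arrays and fell by 0.64 (SE 0.0467, adjusted p = 8.2e-06), also 1.56-fold lower. The lowest young array of each stood well above its highest aged array. Tnpo3, which imports SR splicing factors, fell by 0.23 (adjusted p = 0.000236).

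Kpnb1 (importin beta 1), the carrier of the classical pathway, read 11.47, 11.45 and 11.45 in young and 11.2, 11.21 and 11.2 in aged arrays and fell by 0.25 (SE 0.0249, adjusted p = 5.79e-05), 1.19-fold lower. Ipo5, an importer of ribosomal proteins and histones, read 11.25, 11.22 and 11.21 in young and 10.92, 10.94 and 10.93 in aged arrays and fell by 0.3 (SE 0.0262, adjusted p = 2.77e-05), 1.23-fold lower. Both were tight within each age. Ipo9, an importer of histones and actin, read 9.43, 9.41 and 9.32 in young and 9.54, 9.53 and 9.52 in aged arrays and rose by 0.14 (SE 0.0356, adjusted p = 0.0105), 1.11-fold higher. Its call was lost without aged replicate 1 (adjusted p = 0.0521), and the rise is smaller than the largest shift of the background probes. Ipo4, Ipo8 and Ipo13 had differences of 0.09, -0.07 and -0.07 with overlapping groups (adjusted p = 0.175, 0.338 and 0.366). Ipo4 passed as higher after quantile normalization, without young replicate 1, after centring on positive controls and on their deviations (adjusted p = 0.0372, 0.0101, 0.00118 and 0.000549). Ipo13 passed as lower without young replicate 3 (-0.13, adjusted p = 0.0325), was -0.01 without young replicate 1, and was higher by 0.03 and 0.07 after those centrings without passing. Ranbp6, a paralog of Ipo5, was within the negative control range at 5.54 and 5.63.

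All 8 exportin genes fell, with a median difference of -0.35, and 6 still did after deviation centring. Xpot, the exporter of transfer RNA, read 11.24, 11.19 and 11.2 in young and 10.82, 10.83 and 10.84 in aged arrays and fell by 0.38 (SE 0.0273, adjusted p = 7.69e-06), 1.3-fold lower. Xpo4 read 8.86, 8.79 and 8.72 in young and 8.23, 8.27 and 8.26 in aged arrays and fell by 0.53 (SE 0.0425, adjusted p = 1.44e-05), 1.45-fold lower. Cse1l (CAS), which returns importin alpha to the cytoplasm, read 10.37, 10.39 and 10.4 in young and 10.05, 10.06 and 10.06 in aged arrays and fell by 0.33 (SE 0.0268, adjusted p = 1.53e-05), 1.26-fold lower. The recycling factor of importin alpha and 4 of the 5 tested importin alpha genes were thus all called lower. Xpo7 read 9.6, 9.54 and 9.5 in young and 9.16, 9.13 and 9.19 in aged arrays and fell by 0.39 (SE 0.0364, adjusted p = 4.02e-05), and its paralog Ranbp17 fell by 0.36 between means of 6.27 and 5.91, within the negative control range. Xpo1 (CRM1), the exporter of proteins with leucine-rich export signals, fell by 0.24, and Xpo5, which exports microRNA precursors, by 0.21 (adjusted p = 0.000244 and 0.000186), the latter not passing after deviation centring (adjusted p = 0.0502). Xpo6, the exporter of actin, fell by 0.15 (adjusted p = 0.00868), about the shift of the positive controls, and did not pass after median centring (adjusted p = 0.0578) or after centring on positive controls or their deviations (adjusted p = 0.117 and 0.724).

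The Ran cycle showed smaller differences, with 1 of 4 tested genes lower and a median of -0.09, which turned to 0.01 after centring on positive controls (1 higher, 0 lower) and to 0.05 after centring on their deviations (2 higher, 0 lower). Ran itself read 10.45, 10.36 and 10.35 in young and 10.41, 10.39 and 10.39 in aged arrays, a difference of 0.01 (95% interval -0.07 to 0.09, adjusted p = 0.892). The groups overlapped, and the interval leaves out a decrease of the size seen in Kpnb1. Ranbp1, which helps the activating protein make Ran hydrolyse GTP, read 9.75, 9.85 and 9.81 in young and 9.65, 9.63 and 9.62 in aged arrays and fell by 0.17 (SE 0.0335, adjusted p = 0.00306). It no longer passed after centring on positive controls (adjusted p = 0.209) or their deviations (adjusted p = 0.484), where Ran passed as higher by 0.10 (adjusted p = 0.0126) and 0.15 (adjusted p = 0.00139). Rangap1, the activating protein, had a difference of -0.12 (adjusted p = 0.0877) with every aged array below every young array, and passed after quantile normalization and without young replicate 3 (adjusted p = 0.043 and 0.0116), while deviation centring gave 0.02 (adjusted p = 0.677). Ranbp3, a cofactor of Xpo1, had a difference of -0.05 (adjusted p = 0.371), higher by 0.09 after deviation centring (adjusted p = 0.0272), and Ranbp3l was below the filter at 3.75 to 3.86. Whether the roles differ from each other was not tested.

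Ranbp9 and Ranbp10 carry the name but are scaffold proteins of a ubiquitin ligase complex. Ranbp9 read 10.73, 10.74 and 10.75 in young and 10.34, 10.31 and 10.32 in aged arrays and fell by 0.41 (SE 0.0264, adjusted p = 3.83e-06), 1.33-fold lower. Ranbp10 had a difference of -0.14 (adjusted p = 0.0952), and passed as lower with the replicate number as a block (adjusted p = 0.0492) and without young replicate 3 (adjusted p = 0.0169).

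**Figure D3:**
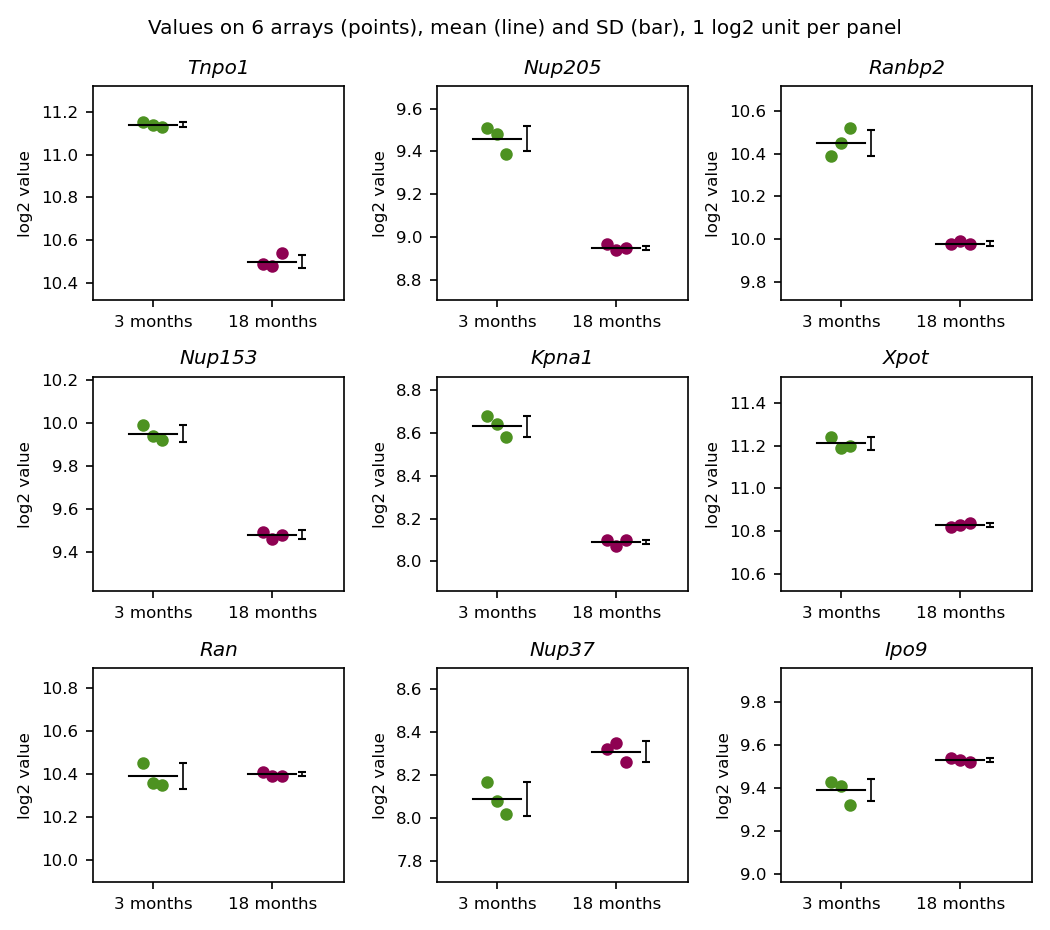
Log2 values on the 6 arrays for 9 members, with the mean (line) and SD (bar) of each age; every panel spans 1 log2 unit and the axes do not start at 0. Tnpo1, Nup205, Ranbp2, Nup153, Kpna1 and Xpot are lower on all 3 aged arrays, Ran overlaps, and Nup37 and Ipo9 are higher on all 3.

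Genes of the same pathway that the symbol rule leaves out were taken from 4 lists, of which 54 genes could be tested: 25 fell, 7 rose and 22 did not pass, with a median difference of -0.10. After deviation centring 15 of them fell and 19 rose. Across all genes tested 22.1% were called lower and 18.5% higher, and after deviation centring 12.2% and 40.2%. Among 9 other pore-linked genes 6 fell and 1 rose, and 4 fell and 2 rose after deviation centring. Ahctf1 (ELYS), which seeds pore assembly on chromatin, stood at 9.71 ± 0.04 in young and 9.13 ± 0.03 in aged arrays (SD, n = 3 each) and fell by 0.58 (SE 0.0348, adjusted p = 2.83e-06), 1.49-fold lower. The pore-bound SUMO proteases Senp2 and Senp1 fell by 0.51 and 0.21, and Mad1l1, a checkpoint protein docked at the basket, by 0.24. Sec13, another gene of the outer ring, did not pass (95% interval -0.07 to 0.07, adjusted p = 0.994), and Nupl2 (Nup42), chosen for mention as the only gene of the list that rose, rose by 0.15. Of 6 other Ran and adaptor genes Nmd3, the export adaptor of the large ribosomal subunit, fell by 0.16 and the other 5 did not pass; after centring on positive controls or their deviations 1 or 3 of the 6 rose and Nmd3 no longer passed. Rcc1, which loads Ran with GTP, was among those, with a difference of -0.03 (adjusted p = 0.625).

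Of 21 mRNA export genes 11 fell and 10 did not pass. Their median difference of -0.18 was close to that of the positive controls, and after centring on those 10 fell and 2 rose, or 6 and 4 with their deviations. Ncbp1, the large cap-binding subunit, read 10.13, 10.12 and 10.1 in young and 9.75, 9.75 and 9.75 in aged arrays and fell by 0.37, 1.29-fold lower (SE 0.0272, adjusted p = 9e-06). Zc3h14, a poly(A)-binding protein, and Thoc2 and Thoc1 of the THO complex fell by 0.35, 0.34 and 0.35. The 18 nuclear envelope genes moved both ways, 6 higher and 7 lower, with a median difference of -0.01, which was 0.01 after quantile normalization or median centring and 0.09 or 0.13 after centring on positive controls or their deviations. Tor1aip1 (LAP1), an activator of torsin, rose by 0.99 (1.99-fold, adjusted p = 1.8e-07), and Syne3 (nesprin 3), with 1 mean within the negative control range, by 0.38. Tmpo (LAP2) and Syne1 (nesprin 1) fell by 0.39 and 0.47. The envelope genes as a group thus had no common direction, unlike the pore genes, though this contrast was not tested.

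**Figure D4:**
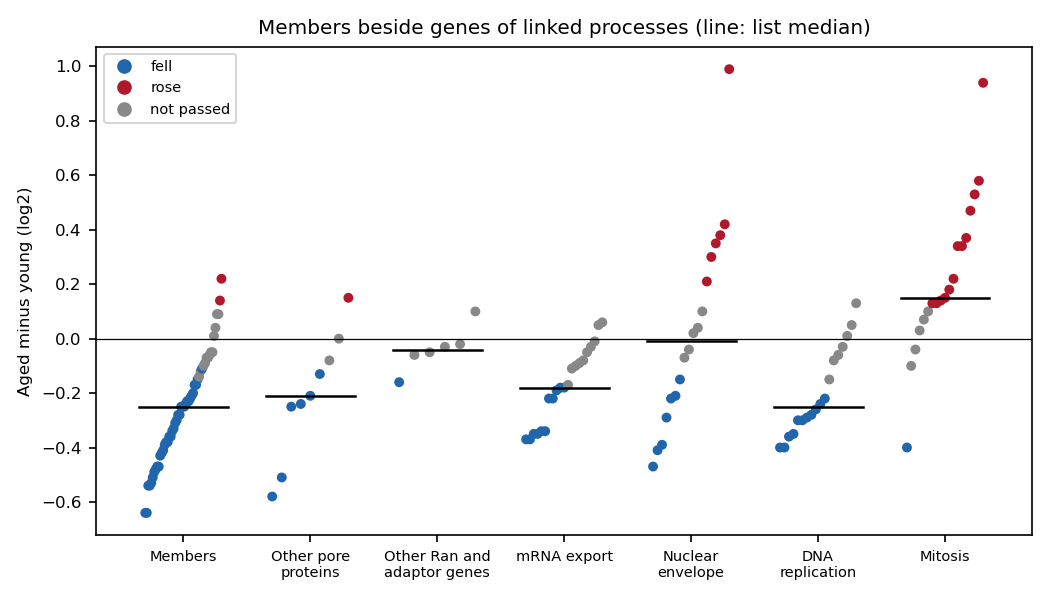
Difference with age (aged minus young, log2) of each tested gene in the members and in 6 lists of linked processes; lines are list medians. Members, other pore proteins, mRNA export and DNA replication genes lie mostly below 0, mitosis genes mostly above, and nuclear envelope genes on both sides.

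Cell cycle genes also differed between the ages, and pore genes are linked to division. Of 18 DNA replication genes 11 fell and 7 did not pass, and their median difference, -0.25, equalled the members' median. However, 7 of the 18 (Rrm2, Cdc6, Gins1, Fen1, Pola1, Ccne1 and Ccne2) had a mean over all arrays within the negative control range. All of these but Pola1 were among the 11 that fell. The negative control probe sets themselves had a median difference of -0.26. After quantile normalization 12 of the 18 fell and 1 rose, and after centring on positive controls 9 fell and 3 rose, or 8 and 3 with their deviations. Mcm4, Pcna, Mcm3 and Cdt1 fell by 0.3, 0.24, 0.35 and 0.4. Of 19 mitosis genes 13 rose and 1, Bub1, fell, with a median of 0.15. Of the 19, 5 had a mean over all arrays within the negative control range. After quantile normalization 10 of the 19 rose and 2 fell. After centring on positive controls or their deviations 16 or 17 rose, and 1 fell under each. Ccnb2, Ccna2, Tpx2 and Kif20a rose by 0.94, 0.53, 0.37 and 0.58. The mean log2 level of the replication list was 8.25 to 8.41 in young and 8.12 to 8.16 in aged arrays, and that of the mitosis list 8.12 to 8.23 and 8.39 to 8.41. Their part in the members' differences was not tested.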

How the data were processed

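The measurements are log2 expression values deposited by the authors, 1 for each probe set on each array. MAS5 is named, without a version, in the submitters' processing notes. Further steps are not stated in them. Groups and replicate numbers came from the sample titles. Probe sets were named from the platform annotation, with symbols updated through RefSeq (GRCm38.p6): 31275 had 1 gene and 1475 several. The tests kept 20149 genes whose mean reached 5.40, the median over transcript clusters. Aged and young arrays were compared with limma 3.58.1 (R 4.3.3, lmFit and eBayes with an intensity trend), with Benjamini-Hochberg adjustment over all genes tested. Permuting 3 arrays against 3 exactly gives no p under 0.1 for any 1 gene, so calls rest on the moderated model. Differences are aged minus young, and no fold is given where a mean lies within the negative control range. The fit was tested on simulated data.

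The members and lists were chosen with earlier results of these data known. Full values are given, within each role, for at most 4 members that passed, by p, and for the brightest. Up to 4 passing genes of each linked list are named. Nup37, Ipo9 and genes singled out beyond that were chosen after their values were seen, as were the promoter motifs. Other settings tried were quantile normalization, centring on medians, the filter removed or raised to leave out the lower 70%, averaged probe sets, eBayes without trend or robust, a block for the replicate number, and leaving out single arrays. Centring on the positive controls' array medians, and on their deviations from their own means, was added after the data were seen.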

Additional observations from a re-analysis of the deposited data

How the results depend on the processing

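Across 14 other settings between 34 and 40 members fell, and their median difference stayed between -0.26 and -0.22. Over the same settings 3702 to 4945 of all genes tested were called lower, and the number tested varied with the filter. Of the 39 called members, Ranbp17 was too dim to be tested under the stricter filter. Of the other 38, 34 kept their call and direction under all 14, and 31 also after both centrings on positive controls. Centring on the controls' array medians gave 5 members higher, a median member difference of -0.15 and 14 companion genes higher. Centring on their deviations gave 8 members higher, a median of -0.11, and 19 companions higher and 15 lower. With array-median and with deviation centring 29.4% and 40.2% of all genes tested were called higher, and 14.3% and 12.2% lower. Leaving out each array gave 1 to 3 members higher and 35 to 40 lower, a median of -0.26 to -0.24, and 6 to 8 companions higher and 23 to 28 lower. In these fits 3702 to 4945 of all 20149 genes tested were called lower and 3004 to 4329 higher. The lowest count of members higher came without aged replicate 1, where Ipo9 was lost. Differences changed sign with array-median and deviation centring for Kpna2 (0.04 and 0.08), Ipo13 (0.03 and 0.07), Ipo8 (0.03 and 0.07), Nup210 (0.00 and 0.04), Nup85 (0.05 and 0.09) and Ranbp3 (0.05 and 0.09), and with deviation centring alone for Nup210l (0.04), Rangap1 (0.02) and Nup50 (0.03), the only one of these that had passed. They also did without young replicate 3 for Aaas (-0.01), Ranbp6 (-0.03) and Ran (-0.01), and without young replicate 2 for Ran (-0.01). Leaving out single arrays gave -0.01 to 0.06 for Aaas and -0.03 to 0.17 for Ranbp6. With the replicate number as a block 38 members fell and 2 rose. Deviations of same-numbered arrays correlated at -0.0477, 0.0688 and 0.0158. Young replicate 2 correlated best with its own number, and young replicates 1 and 3 did not. With 3 arrays for each age, these correlations cannot show whether same-numbered arrays were paired. Precision is limited by having only 3 arrays for each age.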
